A study of Mus musculus with 24 samples.

Results

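The response of mouse peritoneal macrophages to lipopolysaccharide (LPS) plus interferon-γ was read from 8 of the 24 libraries of the series: 4 of unpolarized cells (M0) and 4 of cells given LPS and IFN-γ (M1), neither with the inhibitor ONX-0914. All genes with enough counts were described, 14692 of them. Each library came from 2 to 3 mice whose cells were pooled, and the 4 replicates of a group are stated to be independent. The polyadenylated RNA was sequenced in read pairs. The 4 libraries of cells given IL-4 (M2), also without inhibitor, appear below only as a second reference. The sources used here do not give the strain, age or sex of the mice, the doses, the treatment times or how the cells were purified. The p-values measure the spread between pooled replicates, not between single mice.

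LPS, a cell wall lipid of Gram-negative bacteria, is sensed by TLR4 with its partners CD14 and MD-2. The receptor signals through MyD88 and TRIF to NF-kappaB, the MAP kinases and IRF3, and the last of these leads to interferon-β. IFN-γ, a product of T and NK cells, acts through the kinases JAK1 and JAK2 at gamma-activated sites (GAS) in DNA, while interferon-β acts through a complex with STAT2 and IRF9 at interferon-stimulated response elements (ISRE). Macrophages given both signals are known for making nitric oxide, itaconate and IL-12 and for a shift towards glycolysis. Resident macrophages of the peritoneum depend on the transcription factor GATA6 and clear dead cells and lipoproteins.

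Total counts per library ran from 18480233 to 21821483 in M0 and from 18230924 to 20958871 in M1. M1 replicate 2 was unlike its 3 fellow replicates. Mitochondrially encoded genes took 0.300% of its counts against 1.07% to 1.14% in the others, and its log2 levels correlated across genes with those of the others at r = 0.968 to 0.971, against 0.985 to 0.986 among the other 3 (genes are not independent replicates). Of 6491 genes with a mean of at least 20 CPM (counts as a share of the scaled library total) in M1, 238 lay more than 1 log2 unit below the mean of the other M1 libraries in replicate 2, and 1 to 3 in each of the others. The difference followed the base composition of the transcripts. The genes were cut into 5 bins of equal number by GC content. In the bin lowest in GC (32.7% to 43.7%, 1298 genes), replicate 2 had a median log2 difference of -0.56, and 232 of the 238 genes lay there. In the bin highest in GC the median was 0.31. In M0 the medians of all bins lay within 0.02 of 0. Results that rest on this library are given below with and without it.

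**Figure D1:**
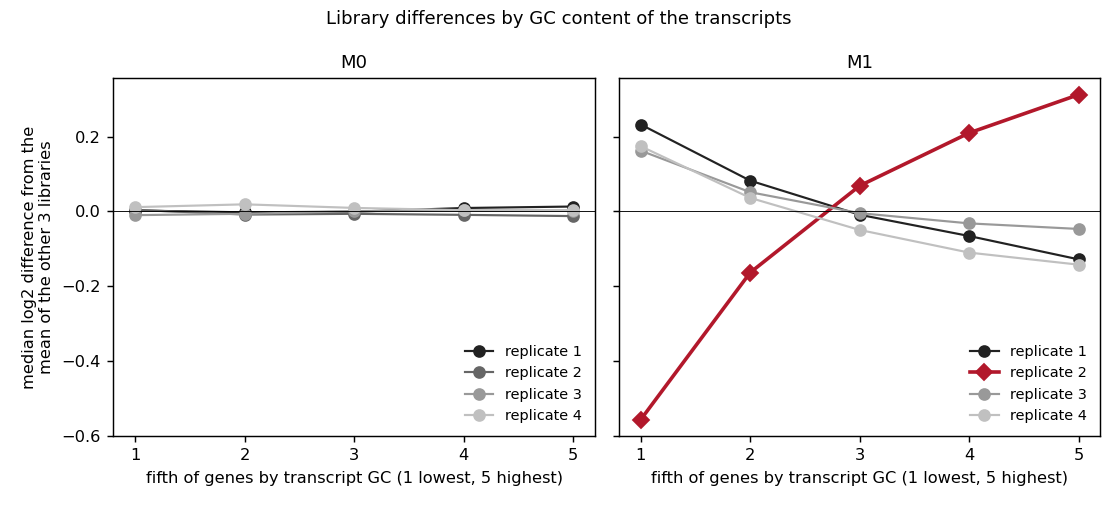
Median log2 difference of each library from the mean of the other 3 of its group (y axis) in 5 equal bins of genes by transcript GC content (x axis, 1 lowest to 5 highest), for M0 (left) and M1 (right). M1 replicate 2 (red diamonds) climbs from -0.56 to 0.31, while the M0 libraries stay near 0.

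In M1 against M0, 10114 of 14692 genes (68.8%) passed edgeR's quasi-likelihood test at an adjusted p under 0.05 after Benjamini-Hochberg, and are named called. They divided into 5084 higher (34.6%) and 5030 lower (34.2%), and 4152 (28.3%) had a log2 change of 1 or more in size. The 4 M1 libraries did not overlap the 4 M0 libraries for 8539 genes (58.1%). Without M1 replicate 2, 9602 of the 10114 genes (94.9%) were called in the same direction, 512 were not called and 0 turned. The rises reached farther than the falls. A log2 change of 3 or more was called upwards in 561 genes and downwards in 254, and one of 5 or more in 222 and 36. The 561 genes, chosen by this result and so not tested, took 0.718% ± 0.0219 of all counts in M0 and 13.3% ± 0.487 in M1 (SD, n = 4).

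These directions are relative to the centre set by TMM, the scaling of libraries to each other. TMM factors were 1.08 to 1.11 in M0 and 0.793 to 0.849 in M1, and the median log2 change over all genes was -0.02. With unscaled library totals it was -0.43, and of the calls 2852 were higher and 8351 lower, so that 25.5% of calls were higher against 50.3% with TMM. A share of counts cannot tell less RNA of a gene per cell from more RNA of other genes, and in these bulk samples fewer cells of a type cannot be told from less RNA per cell. Lists whose direction depends on this choice are given with both below.

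**Figure D2:**
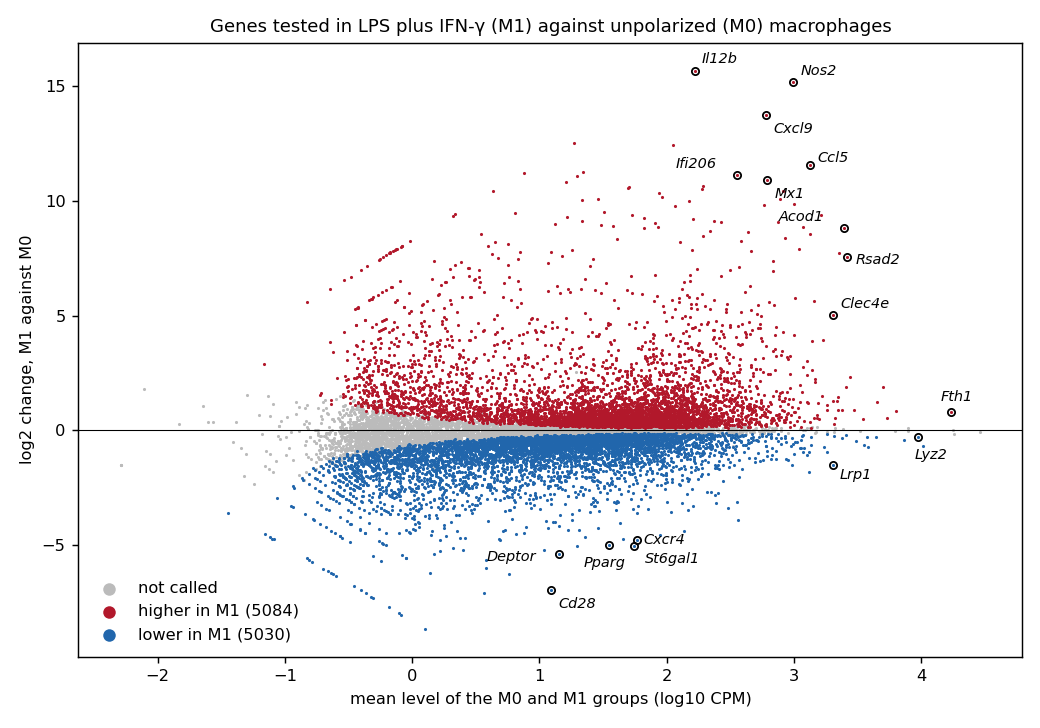
Log2 change in M1 against M0 (y axis) and mean level of both groups (x axis, log10 CPM) for each tested gene with a count in M0 or M1. Red marks genes called higher (5084), blue genes called lower (5030) and grey the rest; rises reach beyond 15 on the log2 scale and falls to about -8.

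Il12b (ENSMUSG00000004296, GRCm38 chromosome 11, 44400063 to 44414033), the p40 chain shared by IL-12 and IL-23, had no count in any M0 library. In M1 replicates 1 to 4 it stood at 375, 287, 367 and 303 CPM, at least 9582-fold higher over the group when M0 is set to 3 counts. Il12a, the other chain of IL-12, had 1 count over the M0 group and 44.3 ± 5.21 CPM in M1. Nos2, inducible nitric oxide synthase, had 1 count in each M0 library and 1799.7, 2071, 2376 and 1668 CPM in M1. Cxcl9, a chemokine that draws activated T cells, was at 0, 0.147, 0.193 and 0 CPM in M0 and at 1293, 853, 1422 and 1242 CPM in M1. No M1 library of these genes came near an M0 library.

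The other genes among the 12 largest rises, taken from those with at least 5 CPM in M1, also had means below 1 CPM in M0. Ifi206, a member of the family of cytosolic DNA sensors called PYHIN, was at 0.241, 0.392, 0.0966 and 0.497 CPM in M0 and at 745, 645, 759 and 717 CPM in M1. Reads may be shared among the near-identical members of that family. Mx1, an antiviral GTPase, had 0.627 ± 0.167 CPM in M0 and 1238, 1241, 1244 and 1231 CPM in M1, the closest set of M1 replicates among these genes. Ms4a4c, a membrane protein of the CD20 family, went from 0.238 ± 0.139 to 384 ± 57.3 CPM. Serpina3f, a serine protease inhibitor from a cluster of close paralogs, had 3 counts over the M0 libraries and stood at 226 ± 22.6 CPM in M1, which is 6486 times the M0 level (95% interval from counting error alone, 2219 to 31454). The chemokines Cxcl11 and Ccl12 had 1 count each in M0 and 39.5 ± 5.31 and 32.7 ± 2.89 CPM in M1, and Ccl12 is close enough in sequence to Ccl2 for reads to be shared. Ptgs2os2, an antisense RNA beside Ptgs2, had 0 counts in M0 and 16.8, 8.38, 17.5 and 18.1 CPM in M1. The sources used here do not say whether counting used strand, so its reads may belong to a transcript of the other strand.

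Counted by the gain in CPM rather than by ratio, the leading genes were ones that M0 cells already held. Rsad2, which encodes the antiviral enzyme viperin, stood at 25.7, 29.0, 26.9 and 28.5 CPM in M0 and at 5336, 4498, 5592 and 5338 CPM in M1. Gbp2, a guanylate-binding GTPase that attacks membranes around pathogens, stood at 22.9, 22.2, 20.8 and 19.2 CPM in M0 and at 4682, 4270.2, 4628 and 4473 CPM in M1. B2m, the light chain of MHC class I, had 2866, 2705, 2666 and 2453 CPM in M0 and 6481, 6228, 6143 and 6480.4 CPM in M1, a log2 change of 1.24 ± 0.06 (SE). Actb, cytoplasmic actin, had 2136 ± 71.8 CPM in M0 and 7209, 9649, 7520.1 and 6968 CPM in M1. Fth1, the ferritin heavy chain, rose from 12613 ± 438 to 22024 ± 6261 CPM, and the mean of M1 without replicate 2, which was at 31402, was 18898. The other 3 of the 8 largest gains were Acod1, Cybb and Clec4e, described below with their functions.

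**Figure D3:**
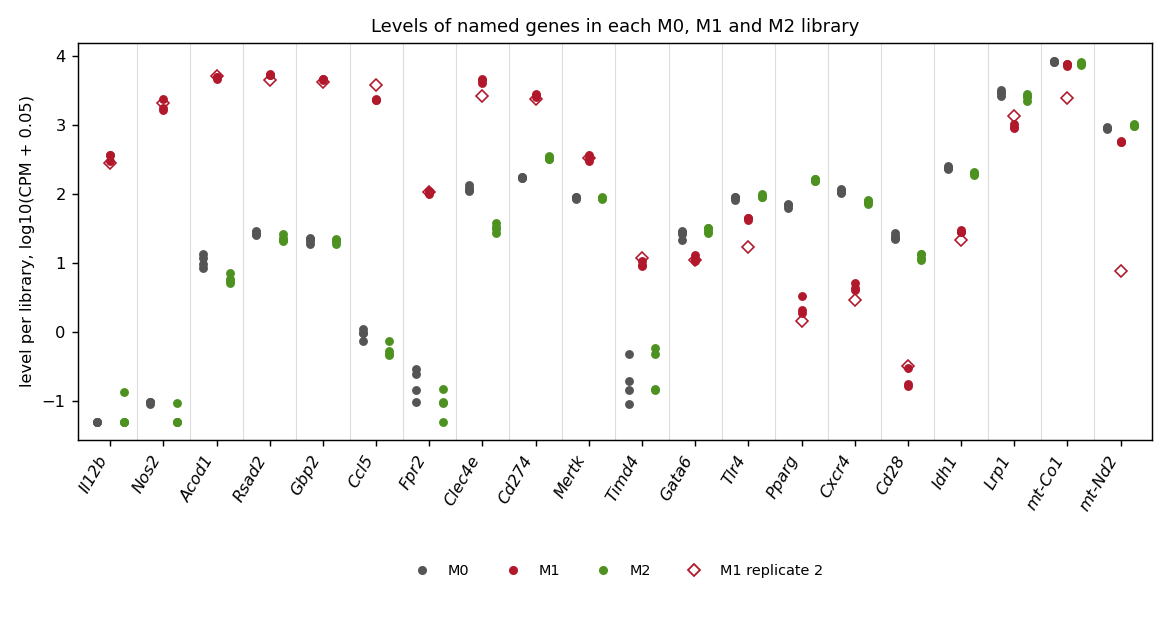
Level of 20 named genes in each library, as log10(CPM + 0.05), with M0 in grey, M1 in red and M2 in green; open diamonds are M1 replicate 2. Genes from Il12b to Timd4 have every M1 library above every M0 library, and those from Gata6 to mt-Nd2 every M1 library below.

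Promoters are printed for a few of these genes because they show the interferon and NF-kappaB motifs among the largest rises. They were chosen after the matches had been seen, Ifi206 and Serpina3f from the largest ratios and Rsad2, Gbp2 and B2m from the largest gains in CPM. Each run gives the 250 bases before a RefSeq start (assembly GRCm38.p6), 5′ to 3′ on the gene's strand, with motif matches in capitals. Ifi206 (chr1:173491319-173491568, minus strand) has GAAATCGAAA, an ISRE core, at positions -40 to -31 from the start. Gbp2 (chr3:142620413-142620662, plus strand) has TTTCACTTTC at -59 to -50 and Rsad2 (chr12:26456453-26456702, minus strand) TTTCATTTTC at -120 to -111, both the ISRE core read on the other strand. B2m (chr2:122147437-122147686, plus strand) has GAAACTGAAA at -139 to -130 and, 3 bases on, the NF-kappaB match GGAAAGTCCC at -126 to -117. Serpina3f (chr12:104214294-104214543, plus strand) has the GAS core TTCCTAGAA at -121 to -113, a place where both strands match the pattern.
Ifi206: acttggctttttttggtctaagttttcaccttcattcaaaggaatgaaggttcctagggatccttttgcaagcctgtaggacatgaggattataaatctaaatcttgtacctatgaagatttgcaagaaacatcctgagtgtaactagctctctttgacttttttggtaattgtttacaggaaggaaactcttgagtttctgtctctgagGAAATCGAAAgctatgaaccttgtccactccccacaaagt
Gbp2: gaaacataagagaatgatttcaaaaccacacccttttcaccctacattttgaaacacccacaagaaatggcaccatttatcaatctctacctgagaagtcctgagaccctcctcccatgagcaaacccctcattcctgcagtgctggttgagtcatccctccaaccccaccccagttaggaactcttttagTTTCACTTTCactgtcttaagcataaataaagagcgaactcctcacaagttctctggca
Rsad2: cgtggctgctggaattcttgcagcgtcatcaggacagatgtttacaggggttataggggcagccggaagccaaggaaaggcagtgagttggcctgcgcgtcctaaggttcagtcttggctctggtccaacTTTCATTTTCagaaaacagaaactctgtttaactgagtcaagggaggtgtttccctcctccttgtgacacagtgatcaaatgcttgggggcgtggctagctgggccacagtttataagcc
B2m: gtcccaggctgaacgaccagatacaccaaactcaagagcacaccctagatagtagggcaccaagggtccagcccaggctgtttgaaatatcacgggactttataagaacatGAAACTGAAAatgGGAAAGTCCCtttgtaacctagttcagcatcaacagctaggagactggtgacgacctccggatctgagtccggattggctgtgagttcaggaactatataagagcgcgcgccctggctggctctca
Serpina3f: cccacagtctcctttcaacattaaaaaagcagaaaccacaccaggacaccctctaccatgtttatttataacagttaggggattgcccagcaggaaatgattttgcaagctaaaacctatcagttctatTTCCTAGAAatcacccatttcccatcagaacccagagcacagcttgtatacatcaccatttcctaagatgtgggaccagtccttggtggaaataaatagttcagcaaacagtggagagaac

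Over all genes the share with an ISRE core in a promoter moved with the size of the rise. The motifs searched on both strands were the ISRE core (GAAA, any 2 bases, GAAA), the GAS core TTCNNNGAA and the NF-kappaB site by its name; a promoter may hold more than one, and the letters of different motifs can overlap. Of 14691 tested symbols, 10483 had an entry in the RefSeq table. Each gene was counted once, with a match where at least 1 of its promoters had one. An ISRE core was found for 27% of the 141 genes higher by at least 5 on the log2 scale, 16.9% of 366 at 3 or more and 8.65% of 1387 at 1 or more. It was found for 3.42% of all tested genes with an entry, 2.44% of those not called and 2.84% of those lower by at least 1. Counted by promoter and not by gene, it was in 2.98% of the 32851 promoters in the table. NF-kappaB matches were in 13.5%, 12.8% and 8.65% of the same 3 sets of higher genes, and in 5.53% of all tested. GAS cores were in 14.9%, 12.6% and 8.22%, and in 7.17% of all tested. These shares are a description without a test, a match is not a bound site, and a promoter without a match says only that the letters are not in those 250 bases. Cybb, another of the largest gains, had 3 ISRE matches, and Nos2, Mx1, Ccl5 and Cd40 had no entry in the table.

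**Figure D4:**
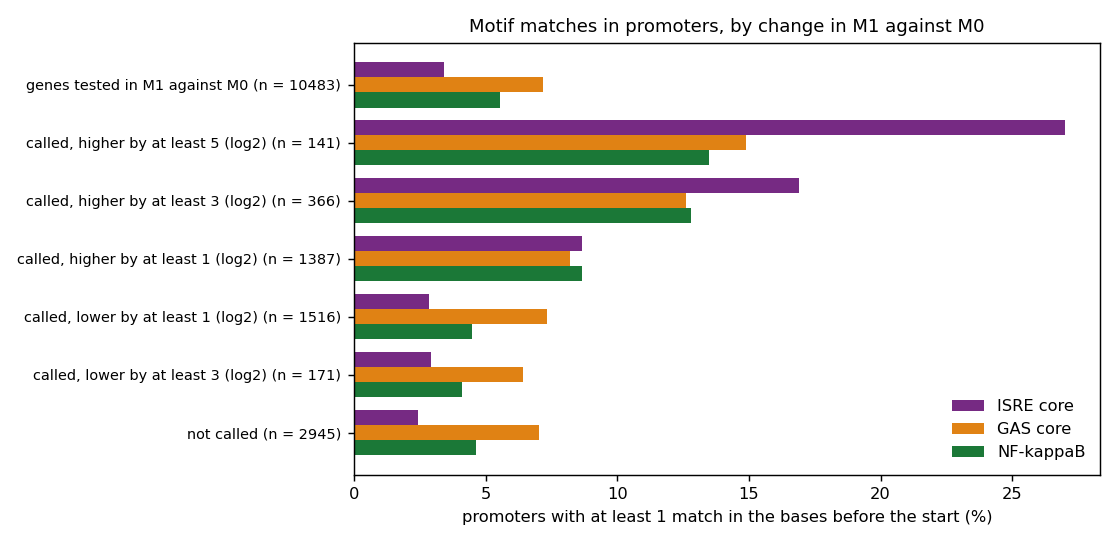
Percent of genes (x axis) with at least 1 promoter match to the ISRE core (purple), GAS core (orange) or NF-kappaB motif (green) in the 250 bases before a start, by change in M1 against M0. The ISRE share is 27% among genes higher by at least 5 on the log2 scale and 2.44% among genes not called.

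Gene groups are counted below over the members tested, to be read against 34.6% of all genes called higher and 34.2% called lower and a median log2 change of -0.02. The lists were chosen with earlier results of these data known and are described by counts and medians, without a test. Of 18 NF-kappaB subunits and inhibitors, 17 rose and 0 fell (median log2 change 1.91). The inhibitors of the IκB family led. Nfkbie, which holds NF-kappaB in the cytoplasm, was at 10.2, 11.1, 10.3 and 10.9 CPM in M0 and 187, 199.9, 187 and 179.5 CPM in M1. Nfkbiz, a nuclear member needed for secondary response genes, rose from 10.3 ± 1.03 to 148 ± 5.83 CPM. The subunits Nfkb2, Nfkb1, Relb, Rela and Rel rose by 3.71, 2.55, 2.38, 1.58 and 1.40 on the log2 scale.

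Of 16 IRF and STAT factors, 12 rose and 1 fell (median 1.22). Irf7, the amplifier of type I interferon, was at 8.97, 10.9, 7.82 and 9.11 CPM in M0 and 1971, 2712, 2074 and 2033 CPM in M1, a log2 change of 7.90 ± 0.27. Irf1 rose from 23.4 ± 2.34 to 896 ± 69.3 CPM and Batf2, an AP-1 partner of IRF1, from 2.04 ± 0.476 to 127 ± 21.1 CPM. Stat2 and Irf9, parts of the factor that binds the ISRE, rose by 4.58 and 2.06. Irf3, Stat5b and Stat6 were not called, with log2 changes of -0.01, -0.11 and -0.03, and Irf4 fell by 0.51. The call of Irf4 is the only lower one, and 0 members were lower without M1 replicate 1.

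Of 19 interferon receptors, kinases and feedback genes, 13 rose and 4 fell (median 1.00). Usp18, which shuts off type I interferon receptor signalling, was at 3.62, 5.25, 3.91 and 3.48 CPM in M0 and 888, 1003, 893 and 884 CPM in M1. Socs1 and Socs3, which block JAK kinases, rose to 44.0 ± 6.40 CPM from 1.29 ± 0.359 and to 201 ± 23.7 CPM from 10.8 ± 1.27. The kinase Jak2 rose by 3.38. Ifngr1, the ligand-binding chain of the IFN-γ receptor, stood at 108, 109, 109 and 102 CPM in M0 and 44.0, 35.6, 32.3 and 42.9 CPM in M1, so the groups did not overlap and it fell by 1.47 on the log2 scale. Socs6 fell by 1.71.

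AP-1, EGR and MAF factors were divided, with 9 of 16 higher and 6 lower (median 0.35, and -0.06 with unscaled totals). Batf rose from 8.86 ± 0.629 to 59.0 ± 10.6 CPM and Fosl1 from 1.42 ± 0.238 to 7.26 ± 0.955 CPM. Jun, an AP-1 subunit, fell from 234 ± 6.27 to 55.1 ± 3.11 CPM. Macrophage lineage regulators were 8 of 20 higher and 7 lower with TMM (median 0.03) and 6 higher and 12 lower with unscaled totals (-0.38). Cebpa and Bhlhe40 fell by 2.13 and 1.63, and Cebpb and Klf6 rose by 1.21 and 1.01, Klf6 with 427 CPM in M1 replicate 2 against 647 to 685 in the other M1 libraries. Of 10 dual-specificity phosphatases, which switch off MAP kinases, 5 were higher and 3 lower (4 and 5 with unscaled totals, which turn the median from 0.33 to -0.08), led by Dusp16 at 1.30 and Dusp5 at 1.18. Dusp10 fell by 0.68, and Dusp2 by 0.24 at an adjusted p of 0.0389.

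Among sensors of microbes, 16 of 23 Toll-like receptors and adaptors rose and 5 fell (median 0.83), and the receptor for LPS itself was among the 5. Without M1 replicate 2, 18 rose and 5 fell. Tlr4 stood at 91.7, 86.7, 81.2 and 91.9 CPM in M0 and 45.5, 17.2, 45.5 and 42.5 CPM in M1. It fell by 1.22 on the log2 scale, and by 0.98 without M1 replicate 2, its lowest library. Cd14, the LPS co-receptor, rose from 108 ± 10.6 to 221 ± 25.8 CPM. Tlr2, a receptor for bacterial lipoproteins, rose from 29.6 ± 1.19 to 323 ± 35.0 CPM. The endosomal nucleic acid receptors Tlr9 and Tlr3 rose to 148 ± 19.4 CPM from 7.89 ± 0.958 and to 147 ± 36.6 CPM from 8.91 ± 1.63, and Tlr13, a sensor of bacterial ribosomal RNA, fell from 373 ± 11.3 to 121 ± 11.6 CPM.

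Cytosolic nucleic acid sensors rose almost without exception: 18 of 19 were higher and 1 lower (median 4.04). Ifi205 was at 2.49 ± 0.732 CPM in M0 and at 878, 451, 818 and 918 CPM in M1, with replicate 2 lowest. Zbp1, a sensor of left-handed nucleic acid that starts necroptosis, rose from 5.30 ± 0.945 to 737 ± 38.0 CPM. The fall was in Mavs, the adaptor of RNA sensing, from 38.1 ± 1.70 to 27.6 ± 1.70 CPM. Of 16 genes on a list of the OAS and Schlafen families, 15 rose and 1 fell (median 5.13). Slfn1, a brake on T cell growth, went from 0.985 ± 0.682 to 531 ± 40.8 CPM and Oasl1 from 8.18 ± 1.10 to 1354 ± 183 CPM. Members of the PYHIN, Schlafen and Oas1 clusters are close paralogs whose reads may be shared.

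Secreted signals rose far. Of 22 interleukins, colony-stimulating factors and their like, 17 rose and 4 fell (median 2.62). Il27, a cytokine that shapes T cell responses, was at 0.541 ± 0.257 CPM in M0 and at 330.1, 336, 311 and 314 CPM in M1. Il1rn, the antagonist of the IL-1 receptor, rose from 57.5 ± 3.54 to 2841 ± 283 CPM. Il10, an inhibitory cytokine, lay at 1.11, 0.932, 1.06 and 1.53 CPM in M0 and 0.955, 0.554, 0.289 and 0.755 CPM in M1. Its groups overlapped in 1 library, and its log2 change of -0.88 was called (adjusted p = 0.00508) but not with limma voom (0.0596). Il16 and Tgfb3 fell by 2.64 and 1.76. Ifnb1, interferon-β, had 0 counts in M0 and 9 in M1 over all 4 libraries, too few to be tested.

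Of 23 ligands and receptors of the TNF superfamily, 16 rose and 6 fell (median 1.28). Cd40, through which T cells license macrophages, was at 0.917, 1.77, 1.64 and 1.45 CPM in M0 and at 1479, 1844, 1509 and 1416 CPM in M1. Tnf rose by 8.87 on the log2 scale. Tnfrsf26 and Tnfsf12, the cytokine TWEAK, fell from 62.2 ± 5.51 to 16.8 ± 1.10 CPM and from 95.7 ± 2.87 to 28.6 ± 3.51 CPM. Chemokines rose in 18 of 23 cases and fell in 2 (median 4.12), and their summed share of counts went from 0.0658% ± 0.00404 to 0.780% ± 0.0530. Ccl5, a chemokine for T cells and monocytes, was at 0.904 ± 0.154 CPM in M0 and at 2308, 3824, 2309 and 2364 CPM in M1, with replicate 2 far above the other 3. Ccl6 and Cxcl14 fell, by 0.87 and 0.50.

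Complement genes were 11 of 20 higher and 7 lower with TMM (median 0.34), 9 and 7 without M1 replicate 2, and 7 and 10 with unscaled totals (-0.07). Cfb, factor B of the alternative pathway, rose from 0.452 ± 0.0495 to 44.9 ± 3.42 CPM and C1ra, a protease of the classical pathway, from 14.8 ± 0.892 to 89.8 ± 7.19 CPM. The inhibitor Cd55 fell from 42.8 ± 3.86 to 10.6 ± 1.48 CPM. Of 19 matrix metalloproteinases, ADAMs and TIMPs, 9 were higher and 8 lower (8 and 11 with unscaled totals). Mmp13, a collagenase, rose from 4.24 ± 0.422 to 111 ± 20.3 CPM and Mmp25 from 0.0829 ± 0.0734 to 6.63 ± 1.04 CPM. Mmp19 fell from 113 ± 11.1 to 18.9 ± 2.25 CPM, and the sheddase Adam8 from 462 ± 13.3 to 155 ± 25.1 CPM.

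Costimulatory and checkpoint molecules rose in 17 of 22 cases and fell in 5 (median 3.20). Cd86, the ligand of CD28 on T cells, was at 10.7, 9.76, 10.6 and 7.83 CPM in M0 and 319, 242, 321 and 298 CPM in M1. Cd274, the checkpoint ligand PD-L1, was at 171, 176, 179.7 and 171 CPM in M0 and 2696, 2371, 2790.0 and 2546 CPM in M1. Cd69, an early activation antigen, rose from 0.843 ± 0.247 to 255 ± 30.9 CPM. Other checkpoints went down. Vsir, which encodes the inhibitory receptor VISTA (ENSMUSG00000020101, GRCm38 chromosome 10, 60346851 to 60372684), stood at 698, 659, 680.0 and 674 CPM in M0 and at 42.4, 49.2, 44.9 and 43.8 CPM in M1, and fell by 3.91 ± 0.06 on the log2 scale. Havcr2, the receptor TIM-3, fell from 22.3 ± 1.73 to 2.40 ± 0.461 CPM.

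Members of a list of Fc receptors changed in opposite directions, 3 of 6 higher and 3 lower with either scaling (median 0.21 with TMM and -0.20 with unscaled totals). Those for IgG take up antibody-coated particles. The activating receptors Fcgr1 and Fcgr4 rose to 282 ± 44.1 CPM from 11.54 ± 2.78 and to 239.5 ± 13.4 CPM from 58.1 ± 4.02. The inhibitory receptor Fcgr2b stood at 231, 227, 233 and 234 CPM in M0 and 98.3, 98.3, 91.4 and 99.1 CPM in M1. Fcgr3, an activating receptor, fell by 0.70. C-type lectins were 5 of 16 higher and 9 lower (median -0.38), and 5 and 7 without M1 replicate 2. Clec4e, known as Mincle and a sensor of mycobacterial glycolipid and of dying cells, was at 135, 116, 113 and 121 CPM in M0 and at 4677, 2612, 4025 and 4456 CPM in M1, with replicate 2 lowest. Clec5a rose by 1.17, and Clec2i and Clec4a2 fell by 2.99 and 2.67.

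Receptors for particles and dying cells were 13 of 24 higher and 11 lower with TMM (median 0.18). They were 11 and 11 without M1 replicate 2, and 8 and 13 with unscaled totals (-0.23). Mertk, a receptor kinase for phosphatidylserine on dying cells and often used as a marker of alternatively activated macrophages, was at 88.7, 91.4, 85.7 and 90.8 CPM in M0 and 334, 330.2, 368 and 299 CPM in M1, against 88.1 ± 2.21 CPM in M2. Olr1, a scavenger receptor for oxidized LDL, rose from 1.16 ± 0.233 to 26.3 ± 4.89 CPM. Axl, the sister kinase of Mertk, went from 76.4 ± 7.02 to 1358 ± 71.9 CPM and was named after its values were seen. Gas6, the bridge that binds both kinases, fell from 60.7 ± 2.74 to 16.9 ± 3.10 CPM. Lrp1, the large receptor for lipoproteins and protease complexes, stood at 2998, 2953, 2674 and 3266 CPM in M0 and 944, 1376, 1031 and 901 CPM in M1. Integrin β3 (Itgb3), which also takes part in uptake, fell from 112 ± 5.64 to 14.2 ± 2.51 CPM.

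Chemoattractant receptors fell more often than they rose, 10 of 18 lower and 6 higher (median -0.64). The formyl peptide receptors, which detect bacterial protein starts, were the large rises. Fpr2 was at 0.0482, 0.196, 0.0966 and 0.248 CPM in M0 and at 107, 106, 101 and 111 CPM in M1, and Fpr1 rose from 0.135 ± 0.0854 to 23.1 ± 1.41 CPM. Ccr7, which guides cells to lymph nodes, was low in both groups, 0.654 ± 0.324 and 2.35 ± 0.325 CPM. Cxcr4, the receptor for the retention signal CXCL12, stood at 119.8, 105, 107 and 116 CPM in M0 and at 4.08, 2.84, 4.33 and 5.04 CPM in M1. Lpar6 fell from 18.3 ± 0.531 to 3.57 ± 1.15 CPM, and Cx3cr1 from 0.613 ± 0.152 to 0.0778 ± 0.0612 CPM. Ccr2, the monocyte receptor for CCL2, was not called, at 0.536 ± 0.186 and 0.321 ± 0.200 CPM.

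Cytokine receptors rose in 15 of 23 cases and fell in 7 (median 0.72). Il12rb1, a chain of the receptor for IL-12 and IL-23, was at 0.241, 0.196, 0.483 and 0.0828 CPM in M0 and 83.3, 84.6, 91.3 and 66.9 CPM in M1. Il15ra, which presents IL-15 to NK and T cells, rose from 4.19 ± 0.329 to 182 ± 12.4 CPM. Tgfbr2 and Il6st, shared chains for TGF-β and IL-6 family signals, fell by 1.58 and 1.07. On a list of purine receptors, ectoenzymes and some receptors for other metabolites, 11 of 17 rose and 4 fell with TMM (median 0.58). With unscaled totals 9 rose and 6 fell (0.17). Hcar2, a receptor for hydroxy acids, rose from 0.779 ± 0.278 to 53.5 ± 8.81 CPM and Gpr84, a fatty acid receptor, from 0.145 ± 0.118 to 13.3 ± 3.60 CPM, while the ADP receptor P2ry1 fell from 14.3 ± 1.82 to 1.57 ± 0.467 CPM and the ectonucleotidase Entpd1 by 0.23. Integrins and adhesion molecules were 11 of 24 higher and 9 lower (9 and 13 with unscaled totals). Icam1 rose from 41.9 ± 0.747 to 1051 ± 113 CPM.

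Genes that mark resident peritoneal macrophages did not move as one, 6 of 20 higher, 8 lower and 6 not called with TMM (median -0.00), and 5 higher and 11 lower with unscaled totals. Gata6, the identity factor, stood at 21.9, 26.04, 29.2 and 28.7 CPM in M0 and 10.8, 10.9, 11.4 and 13.1 CPM in M1, without overlap. Timd4, the phosphatidylserine receptor TIM-4, was at 0.434, 0.0981, 0.145 and 0.0414 CPM in M0 and 9.36, 11.9, 10.8 and 8.94 CPM in M1, so that a gene that defines resident cells was near its floor in the unpolarized cultures. Adgre1, the antigen F4/80, rose from 186 ± 6.36 to 633 ± 27.4 CPM. Serpinb2 rose from 14.1 ± 1.77 to 357 ± 45.3 CPM. Cd93, a receptor linked to clearance of dying cells, fell from 645 ± 32.9 to 74.9 ± 5.14 CPM and Naip1 from 8.37 ± 0.909 to 2.39 ± 0.453 CPM. Csf1r, the receptor for the growth factor of macrophages, fell by 0.33, from 384 ± 8.07 to 306 ± 33.4 CPM.

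**Figure D5:**
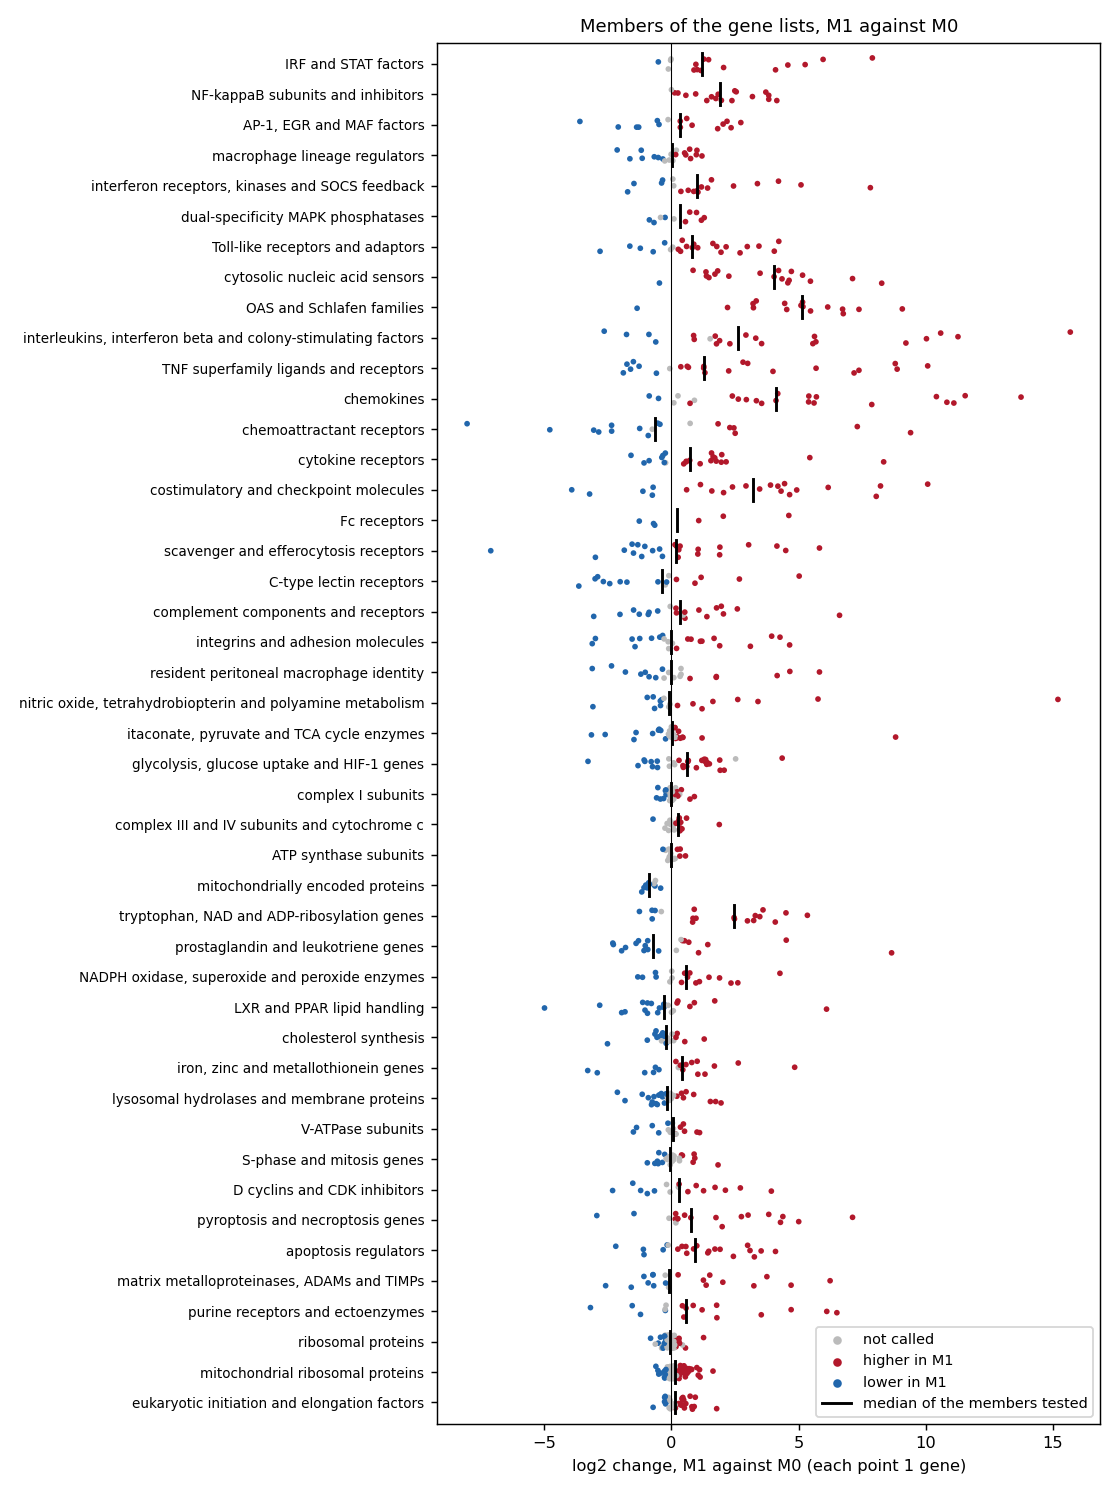
Log2 change in M1 against M0 (x axis) of every tested member of 45 gene lists (rows), with members called higher in red, called lower in blue and not called in grey, and a black bar at each list's median. The medians run from -0.87 (mitochondrially encoded proteins) to 5.13 (OAS and Schlafen families).

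In metabolism, arginine import and nitric oxide synthase rose and arginase fell. Slc7a2, an arginine importer, was at 36.5, 35.4, 35.98 and 39.5 CPM in M0 and at 2126, 1749, 2167 and 1977 CPM in M1, and Nos2 rose as given above. Gch1, which makes the tetrahydrobiopterin that nitric oxide synthase needs, rose from 33.0 ± 1.83 to 349.8 ± 35.3 CPM. Arg1, which consumes the same arginine, stood at 67.4, 77.2, 79.6 and 66.0 CPM in M0 and 8.21, 8.998, 9.64 and 7.43 CPM in M1. Oat, the next enzyme of arginine breakdown, fell by 0.94. Of the 18 genes of this list 8 were higher and 7 lower with TMM, 8 and 9 without M1 replicate 2, and 7 and 11 with unscaled totals.

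Genes of itaconate, pyruvate and the tricarboxylic acid cycle changed in both directions with TMM. Acod1, which makes itaconate from a cycle intermediate (ENSMUSG00000022126, GRCm38 chromosome 14, 103046977 to 103056573), was at 13.7, 9.81, 8.50 and 11.8 CPM in M0 and at 4910.3, 5151, 4957 and 4718 CPM in M1. Idh1, the cytosolic isocitrate dehydrogenase, stood at 253, 232, 237 and 237 CPM in M0 and 30.4, 21.9, 28.4 and 28.1 CPM in M1, and fell by 3.14 ± 0.07 on the log2 scale. The pyruvate dehydrogenase kinase Pdk2 fell by 2.60 and its relative Pdk3 rose by 1.21. Of 30 members 10 were higher, 9 lower and 11 not called with TMM (median 0.04), against 2 higher and 25 lower with unscaled totals (-0.37). Without M1 replicate 2, 12 were higher and 10 lower. Acod1, Idh1, Pdk2 and Pdk3 kept their direction with both scalings.

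Glycolytic and HIF-1 genes rose in 18 of 31 cases and fell in 8 with TMM (median 0.61), against 15 and 13 with unscaled totals (0.19). Hif1a was at 119.5, 122, 121 and 128 CPM in M0 and 594, 326, 628 and 524 CPM in M1, while Epas1, which encodes the related factor HIF-2α, fell from 294 ± 14.2 to 30.4 ± 2.23 CPM. Slc2a6, a lysosomal hexose transporter, rose from 43.6 ± 1.88 to 894 ± 121 CPM. Ldhb, the lactate dehydrogenase chain that favours pyruvate, fell from 27.6 ± 2.07 to 11.2 ± 2.18 CPM.

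The nuclear genes of the respiratory chain moved little relative to all genes. Complex I was 8 of 36 higher and 8 lower with TMM (median -0.02), 7 and 13 without M1 replicate 2, and 2 and 30 with unscaled totals. Ndufs4 and Ndufs3 rose by 0.91 and 0.73, and Ndufb11 and Ndufb10 fell by 0.58 and 0.53. Complexes III and IV with cytochrome c were 12 of 21 higher and 1 lower with TMM (median 0.26), 11 and 5 without replicate 2, and 2 and 10 with unscaled totals (median -0.16). Cycs, cytochrome c, rose from 46.9 ± 3.57 to 173 ± 6.69 CPM and Cox7a2 by 0.60, and Cox7a2l, a factor of supercomplex assembly, fell by 0.72. ATP synthase was 4 of 15 higher and 1 lower, 5 and 5 without replicate 2, and 1 and 12 with unscaled totals. Atp5b rose by 0.56 and Atp5g2 fell by 0.33, while Atp5f1, higher by 0.35, was at -0.06 with unscaled totals.

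Proteins encoded by the mitochondrial genome were 0 of 12 higher and 10 lower (median -0.87, and -0.53 without M1 replicate 2). mt-Co1, a subunit of complex IV, stood at 8562, 8434, 8306 and 8262 CPM in M0 and 7802, 2465, 7275 and 7589 CPM in M1. Its log2 change in edgeR was -0.42 (adjusted p = 0.0437), a call lost when any 1 of the M0 libraries was left out. Without M1 replicate 2 it was -0.15 (edgeR adjusted p = 0.00308). mt-Nd2 of complex I stood at 914 ± 24.6 CPM in M0 and at 589.6, 7.61, 568 and 572 CPM in M1, and changed by -1.07 with replicate 2 and -0.66 without. mt-Nd2 also lost its call without any 1 of the M0 libraries. mt-Co2 fell by 1.16, with 51.9 CPM in M0 replicate 3 against 14.2 to 15.8 in the other M0 libraries, and by 0.47 without that library. The share of counts on all mitochondrially encoded genes was 1.73% ± 0.0327 in M0 and 0.913% ± 0.410 in M1, or 1.12% ± 0.0422 in the 3 M1 libraries without replicate 2. On the TMM scale the summed level changed by -0.53, and by -0.24 without replicate 2, against -0.93 for the share.

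Enzymes of reactive oxygen and its removal were 11 of 18 higher and 4 lower with TMM (median 0.58), and 9 and 7 with unscaled totals (0.17). Cybb, the catalytic chain of the phagocyte NADPH oxidase, was at 934, 874, 871 and 974 CPM in M0 and 5159.7, 3665, 4983 and 4765 CPM in M1. Sod2, the mitochondrial superoxide dismutase, rose from 80.6 ± 1.248 to 1554 ± 84.3 CPM and Prdx5 from 199 ± 24.2 to 1216 ± 214 CPM. Gpx1 and catalase (Cat), which remove hydrogen peroxide, fell from 774 ± 55.0 to 311 ± 46.4 CPM and from 169 ± 4.14 to 77.3 ± 3.09 CPM. Genes of NAD and ADP-ribosylation rose in 14 of 19 cases and fell in 4 (median 2.47). Cd38, the main NAD-consuming ectoenzyme of macrophages, was at 6.90, 8.04, 7.78 and 6.92 CPM in M0 and 358, 183, 329.7 and 335 CPM in M1. Parp14, an ADP-ribosyltransferase, rose from 61.5 ± 5.82 to 1399 ± 102 CPM. Parp1, the DNA damage enzyme of the same family, fell from 72.9 ± 3.18 to 43.1 ± 1.85 CPM and Nmnat3 by 0.75.

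Prostaglandin and leukotriene genes mostly fell, 11 of 20 lower and 7 higher (median -0.71), around a steep rise of the route to prostaglandin E2. Ptgs2, the inducible cyclooxygenase, was at 1.88, 1.42, 2.03 and 3.11 CPM in M0 and 977, 646, 941 and 902 CPM in M1. Ptges, the synthase of prostaglandin E2, rose from 13.99 ± 1.96 to 321 ± 40.7 CPM. Hpgds, the synthase of prostaglandin D2, stood at 157 ± 3.99 CPM in M0 and 44.6, 30.4, 43.8 and 43.4 CPM in M1. Lta4h, which makes leukotriene B4, fell from 109 ± 4.49 to 41.9 ± 1.77 CPM.

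Lipid handling under LXR and PPAR fell in 14 of 23 cases and rose in 6 (median -0.30). Pparg (ENSMUSG00000000440, GRCm38 chromosome 6, 115360951 to 115490399), the nuclear receptor of lipid uptake, stood at 71.2, 69.0, 63.9 and 69.5 CPM in M0 and at 3.31, 1.38, 2.08 and 1.83 CPM in M1, against 160.3 ± 7.06 CPM in M2. Its target Fabp4, a fatty acid carrier, fell from 418 ± 36.8 to 59.5 ± 3.32 CPM. Ch25h, which makes 25-hydroxycholesterol, rose from 1.42 ± 0.251 to 97.2 ± 9.01 CPM, and Nr1h3, the receptor LXRα, from 44.2 ± 2.47 to 144 ± 14.7 CPM. Cholesterol synthesis was 10 of 21 lower and 4 higher (median -0.22). Dhcr7, the last step to cholesterol, fell from 55.1 ± 3.24 to 9.72 ± 1.95 CPM and Sc5d by 0.94.

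Iron, zinc and metallothionein genes were 11 of 18 higher and 6 lower (median 0.40, -0.01 with unscaled totals). Lcn2, which binds bacterial iron carriers, rose from 1.68 ± 0.389 to 48.5 ± 8.57 CPM, and the iron transporter Slc11a2 from 120.1 ± 5.06 to 389 ± 39.3 CPM. Steap3, a ferrireductase, fell from 130.3 ± 6.42 to 17.4 ± 1.79 CPM. Tfrc, the transferrin receptor, stood at 78.1 ± 4.29 CPM in M0 and 45.4, 21.9, 43.8 and 40.2 CPM in M1. The ferritin chains parted, since Fth1 rose by 0.80 and Ftl1 fell by 0.62.

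Lysosomal enzymes and membrane proteins fell in 20 of 36 cases and rose in 8 (median -0.18), and fell in 23 and rose in 8 without M1 replicate 2. Lipa, the acid lipase of lipoprotein cholesterol, stood at 2084, 2026, 2026 and 2070.1 CPM in M0 and 629, 515, 607 and 578 CPM in M1. Galc fell from 287 ± 9.32 to 66.1 ± 3.51 CPM, and Ctsd, cathepsin D, from 12766 ± 468 to 7962 ± 1409 CPM. Ctsc, which activates serine proteases of granules, rose from 184 ± 11.8 to 712 ± 34.7 CPM and Acp5 from 138 ± 6.29 to 462 ± 64.0 CPM. As a share of all counts the list went from 8.97% ± 0.157 to 6.09% ± 0.524, a log2 change of -0.56, while on the TMM scale the sum changed by -0.14. The V-ATPase, the proton pump of lysosomes, was 6 of 16 higher and 5 lower with TMM (median 0.07) and 2 and 11 with unscaled totals (-0.35). Atp6v1d and Atp6v1e1 rose by 1.11 and 1.01, and Atp6v0d2 and Atp6v0a1 of the membrane sector fell by 1.49 and 1.36.

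Genes of inflammatory cell death were 15 of 19 higher and 2 lower with TMM (median 0.77), and 10 and 7 with unscaled totals (0.35). Nlrp3, the inflammasome sensor, was at 7.04, 9.37, 8.21 and 9.28 CPM in M0 and 284, 286, 258 and 264 CPM in M1, and Casp4, the mouse caspase-11 that binds cytosolic LPS, rose from 18.3 ± 0.347 to 259.9 ± 24.2 CPM. Gsdme fell from 11.2 ± 1.30 to 4.05 ± 0.707 CPM. Apoptosis regulators were 16 of 22 higher and 5 lower (median 0.94). Cflar, the inhibitor of caspase-8, rose from 112 ± 7.42 to 1299 ± 184 CPM and Daxx from 31.2 ± 0.887 to 533 ± 27.5 CPM. The death-promoting BH3 proteins Bcl2l11 and Bbc3 fell to 9.72 ± 0.874 CPM from 44.1 ± 2.38 and to 11.6 ± 0.8292 CPM from 24.8 ± 0.743. The 3 Bcl2a1 genes of this list are near-identical copies and share reads.

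Cell cycle genes were divided with TMM. S-phase and mitosis genes were 6 of 25 higher and 7 lower, 7 and 9 without M1 replicate 2, and 4 and 15 with unscaled totals. Ccne1 went from 4.38 ± 0.787 to 15.6 ± 0.654 CPM, Mcm5 was higher by 0.92, and E2f1 and Rrm1 changed by -0.94 and -0.65. D cyclins and inhibitors were 8 of 16 higher and 5 lower (median 0.29, -0.12 with unscaled totals). Ccnd2, a D cyclin, rose from 4.76 ± 0.859 to 73.1 ± 5.09 CPM and Cdkn1a, the inhibitor p21, from 69.1 ± 6.73 to 453 ± 38.7 CPM. The inhibitors Cdkn2c and Cdkn1c fell from 12.9 ± 0.677 to 2.62 ± 0.458 CPM and from 154 ± 12.996 to 54.0 ± 4.13 CPM.

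Ribosomal proteins were 9 of 81 higher, 18 lower and 54 not called with TMM (median -0.05), 8 and 35 without M1 replicate 2, and 2 and 73 with unscaled totals. Rps24 rose by 0.56 and Rpl10a fell by 0.51, while Rpl27, higher by 0.33, was at -0.09 with unscaled totals. Rps27 fell by 0.81 with 78.0 to 182 CPM in M0. Their summed share of counts was 3.26% ± 0.254 in M0 and 2.36% ± 0.214 in M1, and on the TMM scale the sum changed by -0.05. Mitochondrial ribosomal proteins were 34 of 76 higher and 9 lower with TMM (median 0.14) and 10 and 42 with unscaled totals (-0.28). Mrpl27 and Mrpl13 rose by 1.64 and 1.13, and Mrpl42 and Mrps26 fell by 0.61 and 0.53. Initiation and elongation factors were 17 of 33 higher and 6 lower with TMM (median 0.16) and 8 and 17 with unscaled totals (-0.25). Eif6, which keeps the ribosomal subunits apart, rose from 64.6 ± 4.81 to 222 ± 40.0 CPM and Eif5a by 0.94, and Eif4b fell by 0.71. Eif4a2 fell by 0.26 (edgeR adjusted p = 0.0303), and was not called without M1 replicate 2 (edgeR adjusted p = 0.106) or without M0 replicates 3 or 4.

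The 12 steepest falls were taken from genes with at least 5 CPM in M0; fitted falls of genes below that level, such as Cxcr2 with 141 counts in M0 and 0 in M1, go farther. Cd28 (ENSMUSG00000026012, GRCm38 chromosome 1, 60716800 to 60773359), best known as the costimulatory receptor of T cells, stood at 22.7, 22.9996, 24.6 and 27.3 CPM in M0 and at 0.127, 0.277, 0.116 and 0.252 CPM in M1. The T cell gene Cd3e had 13 counts in M0 and 4 in M1 over all libraries. Fam180a stood at 7.35 ± 0.631 CPM in M0 and had 3 counts in M1, which puts M0 156 times above M1 (interval from counting error alone, 53.0 to 757). Deptor, an inhibitor of mTOR, was at 29.0, 26.8, 26.6 and 29.6 CPM in M0 and 0.573, 0.0692, 0.866 and 1.07 CPM in M1. St6gal1, which adds sialic acid to glycoproteins, stood at 101, 110.3, 115 and 109 CPM in M0 and 3.57, 2.98, 3.75 and 2.77 CPM in M1. Rasgrp3, an activator of Ras, fell from 21.03 ± 0.379 to 0.559 ± 0.206 CPM. Abcg3, a transporter, fell from 7.45 ± 0.949 to 0.112 ± 0.0681 CPM. Galnt9, Tcp11l2, Cmbl and Aqp5 fell by 6.27, 5.04, 4.76 and 4.71 on the log2 scale, and Cxcr4 and Pparg, described above, complete the 12.

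By loss of CPM the leading genes were Ctsd, mt-Co1, Lrp1, Lyz2, Mmp12, Ftl1, Lipa and Fabp5. The place of mt-Co1 rests on M1 replicate 2: its M1 mean was 6283 CPM with that library and 7556 without it, against 8391 in M0, and its loss is then the smallest of the 8. Lyz2, lysozyme, stood at 11807, 10106, 10105 and 9966 CPM in M0 and 8178, 9755, 8192 and 8227 CPM in M1, a log2 change of -0.29 ± 0.06. Mmp12, macrophage elastase, fell from 4722 ± 109.7 to 2873 ± 426 CPM and Fabp5 from 2393 ± 171 to 1252 ± 133 CPM. For these abundant genes the fall is less than 1 on the log2 scale except for Lrp1 and Lipa. Without M1 replicate 2, Fabp5 also passes 1, with a change of -1.01 against -0.93 with all libraries.

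Against M2, 9782 genes were called in M1 (66.6%), 4730 higher (32.2%) and 5052 lower (34.4%). Both comparisons use the same 4 M1 libraries, so they are not independent. Of the 12 genes with the steepest rise over M0, none was above 1 CPM in M2. Arg1, the gene by which IL-4 cells are known, was at 72.5 ± 6.87 CPM in M0, 8.57 ± 0.961 in M1 and 1947 ± 156 in M2. Slc7a2, its supplier of arginine, was at 36.8 ± 1.81, 2005 ± 189 and 782 ± 47.2 CPM, and Socs1 at 1.29 ± 0.359, 44.0 ± 6.40 and 13.5 ± 1.61 CPM, so both were above M0 in M1 and in M2. Mmp13 was higher in M2 (128 ± 2.27 CPM) than in M1 (111 ± 20.3 CPM), by 0.21 on the log2 scale (edgeR adjusted p = 0.0364). M1 replicate 2 stood at 80.8 CPM for this gene, and the M1 mean without it was 121 ± 4.08 CPM. Among falls, Cdkn1c had 154 ± 12.996 CPM in M0 and 54.0 ± 4.13 and 59.0 ± 4.48 CPM in M1 and M2. Tfrc stood at 78.1 ± 4.29, 37.8 ± 10.8 and 564 ± 16.2 CPM. NF-kappaB subunits and inhibitors were higher than M2 in 16 of 18 cases and lower in 0, and mitochondrially encoded proteins higher in 0 of 12 and lower in 9.

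Markers of the labelled cell type were high in every library. The summed level of 10 macrophage markers was 21169 to 24648 CPM in M0 and 20761 to 23803 CPM in M1. Lyz2 (means of 10496 CPM in M0 and 8588 in M1) and Ctss (8014 and 7897 CPM) made up most of it. Of the 10 markers, 5 were called higher in M1 and 4 lower. The sum of 11 B cell markers was 20.9 to 28.5 CPM in M0 and 16.7 to 24.02 in M1. Of 16 T and NK cell markers only 2 were tested, and their list sum of 997 to 1046 CPM in M0 and 450 to 890 in M1 was almost all Il7r. Neutrophil markers summed to 49.1 to 58.0 CPM in M0 and 141 to 161 in M1, of which Csf3r made up most. Of these 12 markers 5 had no count in M0 and 5 had none in M1, and S100a9 and Ly6g were at 0 in all 8 libraries. S100a8 was at 4.63 ± 0.592 CPM in M0 and 8.57 ± 2.91 in M1, and Mmp8 at 3.17 ± 0.542 and 2.67 ± 0.892. Dendritic cell markers summed to 5.93 to 7.94 and 9.25 to 13.1 CPM, and mast cell and basophil markers to 3.09 to 4.59 and 20.3 to 31.4 CPM. Among the latter, Hdc was at 1.71 CPM in M0 and 23.1 in M1, Cpa3 at 0.520 and 0.0317, and Mcpt8 at 0. Eosinophil markers summed to 16.7 to 19.3 and 8.40 to 9.07 CPM, almost all Siglecf (17.6 and 8.24 CPM), with Prg2 and Epx at 0. Mesothelial and fibroblast markers summed to 795 to 1046 and 778 to 974 CPM, mostly from the collagens, Pdgfra and Dcn. Of these 12 markers, 2 were called higher in M1 and 6 lower. The globins were at 0. The part of these cells in the changes above was not tested.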

How the data were processed

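Polyadenylated RNA of mouse peritoneal macrophages was sequenced in read pairs, 4 libraries a group in 6 groups. The authors deposited a table of raw counts per gene, with no normalization in it. Per the submitters' processing notes, FastQC 0.11.9, cutadapt 2.8, Bowtie2 2.2.5, Picard and the build mm10 were used; the counting program, its strand setting and its annotation release are not named in the sources used here. Of 54532 features, 54495 were matched to GENCODE M21 symbols (GRCm38), and the 37 without a symbol held 0.00253% of counts.

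The main test was edgeR 4.0.16's quasi-likelihood test in R 4.3.3 with TMM scaling and filterByExpr, fitted to all 24 libraries with 6 groups and no covariate (18 residual degrees of freedom). The 14692 genes tested held 99.9% of counts. Genes were called where the p adjusted by Benjamini-Hochberg over all tested genes was under 0.05. Levels are CPM scaled by TMM, errors of levels are SD over 4 libraries, and errors of log2 changes are standard errors derived from the F statistic. Shares of counts used unscaled totals and are given without a test, since their lists were chosen with results known. Intervals and the limit of 3 counts that a count of 0 allows cover counting error only, at 95% confidence. The script was tested on simulated data in which few genes changed and no library was like M1 replicate 2. That test does not cover a response of this breadth or a library of this kind.

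The 45 gene lists, 9 marker lists and the members were chosen with earlier results of these data known. By rule, 225 genes were chosen: the 12 largest called rises and falls with at least 5 CPM in the higher group, the 8 largest gains and losses in CPM, 2 rises and 2 falls per list with at least 5 CPM in the higher group, a fixed set, and the genes in which M1 replicate 2 lay farthest from its group. Some of these genes are not reported here. Other genes named with values are from the lists or are said to be chosen after their values were seen. Alternatives were DESeq2 1.42.0 (test and size factors), limma 3.58.1 (voom), other filters, the 8 libraries alone, a replicate block, and each library left out. Unscaled library totals were added after seeing the data. GC content came from the annotated transcripts, for 14677 genes. The numbers of the libraries were not taken as pairs. Deviations of same-numbered M0 and M1 libraries from their group means correlated at -0.03 to 0.02 across genes. M1 replicate 2 enters the M1 mean and the check was not repeated without it, so it cannot decide whether the libraries were paired.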

Additional observations from a re-analysis of the deposited data

Results flagged for a closer look

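In each group of 4 libraries, the named genes and the summed shares were searched for a single library whose gap to the nearest of the others, divided by the group's range, exceeded Dixon's 95% critical value. Of 422 groups of 4 values, 49 held such a library; chance gives about 1 in 20. M1 replicate 2 was the library in 36 of them, and the other 7 libraries in 13 together. Some of the genes searched had been named because M1 replicate 2 lay far from its group in them. Without those genes, 42 of 400 groups held such a library, and it was M1 replicate 2 in 30.

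M1 replicate 2 was far above the other M1 libraries in 23 genes and 1 share. Among signalling and secreted genes its levels in CPM were Ccl5 3824, Irf7 2712, Tnf 2506, Usp18 1003, Daxx 574 and Mavs 30.2. Among metabolic and iron genes they were Fth1 31402, Prdx5 1537, Fabp5 1449.9, Slc2a6 1073, Atp5b 1023, Slc11a2 447, Ptges 381, Romo1 44.0 and Steap3 20.1. Among lysosomal genes they were Ctsd 10060.4, Lyz2 9755 and Acp5 557, and the share of counts on lysosomal genes was 6.88%. Among genes of translation they were Rpl27 419.6, Rpl10a 315, Eif6 282, Rps27 103 and the pseudogene Rps16-ps2 73.2, which may share reads with its parent gene.

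M1 replicate 2 was far below the other M1 libraries in 11 genes and 1 share. The mitochondrially encoded genes stood at 2465 CPM for mt-Co1, 7.61 for mt-Nd2 and 3.05 for mt-Nd6, with a share of 0.300% of counts for all of them. The remaining levels in CPM were Klf6 427, Cd38 183, Mmp13 80.8, Hpgds 30.4, Tlr4 17.2, Ptgs2os2 8.38, Arhgap5 3.53 and Katnbl1 2.84.

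In M0, replicate 1 was high for Lyz2 (11807 CPM) and low for Tlr9 (6.46) and Abcg3 (6.03), replicate 2 was high for Cdkn2c (13.9) and Il16 (9.81), replicate 3 was high for mt-Co2 (51.9), and replicate 4 was low for Eif5a (339.8), Ifngr1 (102) and Rpl37rt (18.2). In M1, replicate 1 was high for Cycs (183 CPM), replicate 3 was low for Fcgr2b (91.4) and high for Rasgrp3 (0.866), and replicate 4 was high for Aqp5 (0.630).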

How the results depend on the processing

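The number of called genes in M1 against M0 lay between 8793 with the 8 libraries fitted alone and 11203 with unscaled totals, against 10114. With unscaled library totals 2852 genes were higher and 8351 lower. The replicate block gave 10151 calls, and leaving out 1 library at a time 9809 to 10444; against M2 the block gave 9825 and leaving out 1 library 9485 to 9991. The block is no evidence of pairing. In the check of deviations, which M1 replicate 2 enters, 0 of 4 M0 libraries correlated best with the M1 library of their number. The lists of small changes moved most. With the 8 libraries alone, IRF and STAT factors had 0 members lower, complex I 3 higher, complexes III and IV 2 lower, mitochondrially encoded proteins 4 lower, cholesterol synthesis 2 higher and ribosomal proteins 4 higher. With limma voom the counts were 2 lower (IRF and STAT), 5 higher and 13 lower (complex I), 5 lower (complexes III and IV), 6 lower (ATP synthase) and 39 lower (ribosomal proteins). Without a count filter they were 5 higher (complex I), 3 lower (III and IV), 2 lower (ATP synthase) and 29 lower (ribosomal). The replicate block gave 2 lower for IRF and STAT factors and 2 lower for complexes III and IV, and DESeq2's test and its size factors also gave 2 lower for the latter. Leaving out 1 library at a time gave ranges of 0 to 2 lower (IRF and STAT), 5 to 13 lower (complex I), 1 to 5 lower (III and IV), 1 to 5 lower (ATP synthase), 3 to 5 lower (apoptosis, 3 without M0 replicate 4), and 5 to 11 higher and 12 to 35 lower (ribosomal proteins); the highest counts of lower members in these ranges came without M1 replicate 2, except for apoptosis. Without M1 replicate 2 the difference in share of counts, in percentage points, was -0.617 for mitochondrially encoded genes, -0.998 for ribosomal proteins, 0.689 for chemokines and -3.14 for lysosomal genes. Of 224 named genes tested, 207 kept their direction and side of the threshold under every alternative set before unscaled totals were added, and with those totals 2 called genes (Atp5f1 and Rpl27) turned direction without being called. Zfp984 went from -0.03 to 0.34 (log2) without M1 replicate 2, with a range of -0.25 to 0.34 over libraries left out. The cause was not tested for any of these. Depth limits what can be said of genes with a few counts in a group, such as Ifnb1.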

Other observations

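A few genes outside the lists' leading members were named after their values had been seen. Cd163, the scavenger receptor for haptoglobin with haemoglobin, had 74 counts over the 4 M0 libraries and 0 over the 4 M1 libraries. Cxcr2, a receptor for neutrophil-attracting chemokines, had 141 counts in M0 and 0 in M1. F10, coagulation factor X, stood at 106 ± 6.61 CPM in M0, 1895 ± 186 CPM in M1 and 307 ± 5.91 CPM in M2 (SD, n = 4). Icosl, the ligand of the T cell receptor ICOS, stood at 0.450 ± 0.0737 CPM in M0 and 33.0 ± 3.92 CPM in M1. Clec10a, a lectin that binds galactose, went from 141 counts in M0 to 8 in M1.

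The balance of calls by GC content moved with M1 replicate 2. Among all tested genes with a sequence, the 2936 lowest in GC had 928 called higher and 928 lower in M1 with all libraries, and 1216 higher and 809 lower without that library. The 2936 highest in GC had 951 higher and 1091 lower with it, and 871 higher and 1204 lower without it.

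Of transcripts by annotated type, 319 long intergenic RNAs were tested, of which 73 were called higher and 126 lower, while 12653 protein-coding genes gave 4559 higher and 4587 lower. In 27 called genes no M0 library had a count, and in 22 no M1 library had one.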
